A study of Homo sapiens with 6 samples.

Results

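The mature microRNAs (miRNAs) miR-338-3p, miR-338-5p and miR-1250-5p are made from 2 hairpins, MIR338 and MIR1250, in introns of the gene AATK on chromosome 17. They were taken by name as 3 of the 2656 mature miRNAs listed in a small RNA sequencing table. They were selected on their log2 fold changes in the comparison described here, for a difference between neighbours, so their own values are given as a description with no test. Of the 3, miR-338-3p and miR-1250-5p passed the filter on low counts that left 783 miRNAs to test, and miR-338-5p did not. The cells were KPL4, an established human breast adenocarcinoma line in which the estrogen receptor ERβ, encoded by ESR2, had been knocked out. One group held 3 libraries of these ERβ knockout cells, called S1, S2 and 3, where S1 and S2 are known by group only. The other held 3 libraries, called 1, 2 and 3, of ERβ knockout cells with exogenous ERβ. The labels name no treatment of either group. Both groups thus carry the knockout, and a knockout line with an empty vector is not among the groups compared here. The labels give neither the vector or promoter that expresses ERβ nor whether the lines are single clones. What is due to the receptor and what to any other difference between the lines cannot be told apart. Nothing in the labels says that replicates were separate cultures, so the spread between libraries may be technical.

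A miRNA gene inside an intron can be transcribed with its host, and the hairpin is cut from the primary transcript by Drosha and then by Dicer into a 5p and a 3p arm. Usually 1 arm is loaded into Argonaute and kept, and its seed, bases 2 to 8, directs it to messenger RNAs. AATK encodes a membrane-anchored kinase that is best known from neurons. The miRNA miR-338-3p promotes the maturation of oligodendrocytes, the myelin-forming cells of the brain, and it is often described as a tumour suppressor in epithelial cancers. Little is established about miR-1250-5p. The opposite strand of MIR338 carries a miRNA gene of its own, MIR3065, whose products are nearly the reverse complement of the miR-338 arms.

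The 7 mature miRNAs that AATK and its opposite strand can give are shown because the measurements below turn on which strand and which arm was counted. The sequences are from RefSeq (GRCh38.p14), 5′ to 3′, with the seed in capitals.
miR-338-3p: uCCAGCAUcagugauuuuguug
miR-338-5p: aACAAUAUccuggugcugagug
miR-1250-5p: aCGGUGCUggauguggccuuu
miR-1250-3p: aCAUUUUCcagcccauuca
miR-657: gGCAGGUUcucacccucucuagg
miR-3065-5p: uCAACAAAaucacugaugcugga
miR-3065-3p: uCAGCACCaggauauuguuggag
The seeds of the 7 all differ. None of the 3 members shared bases 2 to 8 with another of the 2367 miRNAs of the table that matched a RefSeq sequence by name. On bases 2 to 7, 1 relative was found, miR-4530 for miR-338-3p, and it was too low to test.

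The hairpins of the opposite strands are shown whole, with the mature arms in capitals.
MIR338: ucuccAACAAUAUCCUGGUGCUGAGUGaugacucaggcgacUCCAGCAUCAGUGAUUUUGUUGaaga
MIR3065: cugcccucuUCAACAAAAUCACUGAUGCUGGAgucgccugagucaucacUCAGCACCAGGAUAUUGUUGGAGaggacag
MIR338 lies at chr17:81125883-81125949 on the minus strand (GRCh38), in intron 7 of the AATK transcript AATK-201. MIR3065 lies at chr17:81125877-81125955 on the plus strand and covers all 67 bases of MIR338. All 22 bases of miR-338-3p are reverse complementary to miR-3065-5p, and 19 of the 22 bases of miR-338-5p to miR-3065-3p. MIR1250 lies at chr17:81133196-81133308 on the minus strand, in intron 2, with 7246 bases between it and MIR338. MIR657 lies in intron 7, 509 bases beyond MIR338. None of these hairpins overlaps an exon of any annotated AATK transcript, and no annotated host gene contains MIR3065 on its own strand.

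**Figure D1:**
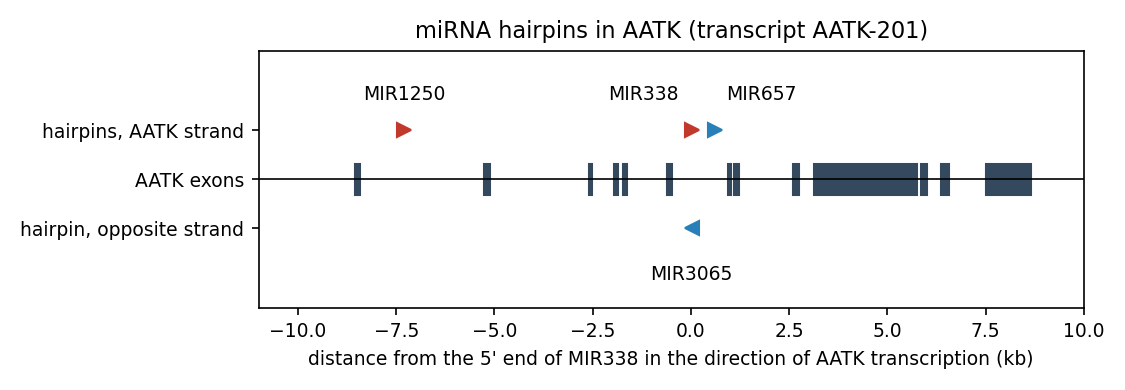
Hairpins (triangles pointing in their direction of transcription; MIR338 and MIR1250 in red, MIR657 and MIR3065 in blue; not to scale) and exons of the AATK transcript AATK-201 (dark blocks), by distance in kb from the 5′ end of MIR338. Exon 1 lies further to the left, outside the axis; MIR3065 sits on the opposite strand at the position of MIR338.

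In the cells with exogenous ERβ, miR-338-3p was lower in all 3 libraries, 2.12-fold below its knockout level, while miR-1250-5p was present at about 2 CPM in both groups and miR-338-5p was not detected in any library. CPM are counts scaled to a common library size with trimmed-mean factors. The reads of this locus came mostly from the opposite strand, from miR-3065-5p and miR-3065-3p, and both of these rose. Total counts ranged from 10288413 to 14296900 per library. Neither the aligner nor the strand setting of the counting is known here. If strand was not used, reads of miR-338 and miR-3065 cannot be told apart. All 42 values of the 7 miRNAs were whole numbers in a table where 6.33 to 7.27% of values per library were not, as where reads are divided among names. Knockout library S2 stood apart from its group, with a chi-square per degree of freedom of 307 and 331 against the other knockout libraries, where the other pairs within a group had 12.2 to 21.2.

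The count of miR-338-3p, the arm with the known oligodendrocyte role, was 812, 772 and 694 in knockout libraries S1, S2 and 3. In ERβ libraries 1, 2 and 3 it was 321, 523 and 503. Scaled, this was 73.8, 63.8 and 70.6 CPM in the knockout libraries and 28.9, 35.0 and 34.0 CPM in those with ERβ. The lowest knockout library, S2, thus lay above the highest ERβ library, and the groups did not overlap. The choice of the set used this contrast, and the background is given for scale: of all tested miRNAs 23.1% were called in either direction at an adjusted p under 0.05, 20.9% were lower with ERβ without overlap, and 39.8% had no overlap in either direction. The means were 69.4 ± 5.11 and 32.6 ± 3.24 CPM (SD, n = 3 per group). The fitted log2 fold change, ERβ over knockout, was -1.09 ± 0.11 (standard error). By mean level miR-338-3p ranked 228 of 783 tested miRNAs. In bulk libraries, fewer cells with a miRNA and less of it per cell cannot be told apart.

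miR-338-5p, the other arm of the same hairpin, had a count of 0 in all 6 libraries. A count of 0 allows up to 3 counts, or 0.201 to 0.305 CPM per library. Against that floor the observed count of miR-338-3p was 107-fold higher in ERβ library 1 and 271-fold in knockout library S1, with the other libraries between. These ratios cover the counting error of the 0 only, not that of miR-338-3p. With the exact 95% Poisson limit of 3.69 counts they would be lower. They follow the count of miR-338-3p, so the arms give no comparison between the groups. A share over hairpins gives a scale for this but not a rate at this level. The major arm had a lower limit only, while miR-338-3p averaged 51.0 CPM. In 126 hairpins with both arms listed the major arm averaged at least 30 CPM, and in 3 of them (2.38%) the other arm had 0 counts throughout. The other two were miR-375-5p, beside miR-375-3p at 233 CPM, and miR-1301-5p, beside miR-1301-3p at 102 CPM. Unlike these, miR-338-5p has an antisense miRNA, miR-3065-3p, which held 9450 counts over the 6 libraries. Whether any of these reads belong to miR-338-5p was not tested.

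miR-1250-5p, from the hairpin nearer the start of AATK, had 9, 24 and 27 counts in knockout libraries S1, S2 and 3 and 24, 27 and 29 in ERβ libraries 1, 2 and 3. Scaled, the knockout libraries had 0.818, 1.98 and 2.75 CPM and the ERβ libraries 2.16, 1.80 and 1.96 CPM. The ERβ libraries lay close together, inside the range of the knockout libraries. Knockout library S1 was the lowest and knockout library 3 the highest of all, and their exact 95% Poisson intervals, which cover counting error only, were 0.374 to 1.55 and 1.81 to 3.996 CPM. The means were 1.849 ± 0.971 and 1.98 ± 0.179 CPM (SD, n = 3 per group), with a fitted log2 fold change of 0.10 ± 0.36 (standard error). It ranked 629 of 783 by mean level, and the depth does not fix its direction. Without knockout library S1 the log2 fold change was -0.25, and without knockout library 3 it was 0.47. Its other arm, miR-1250-3p, had 0 counts in every library.

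**Figure D2:**
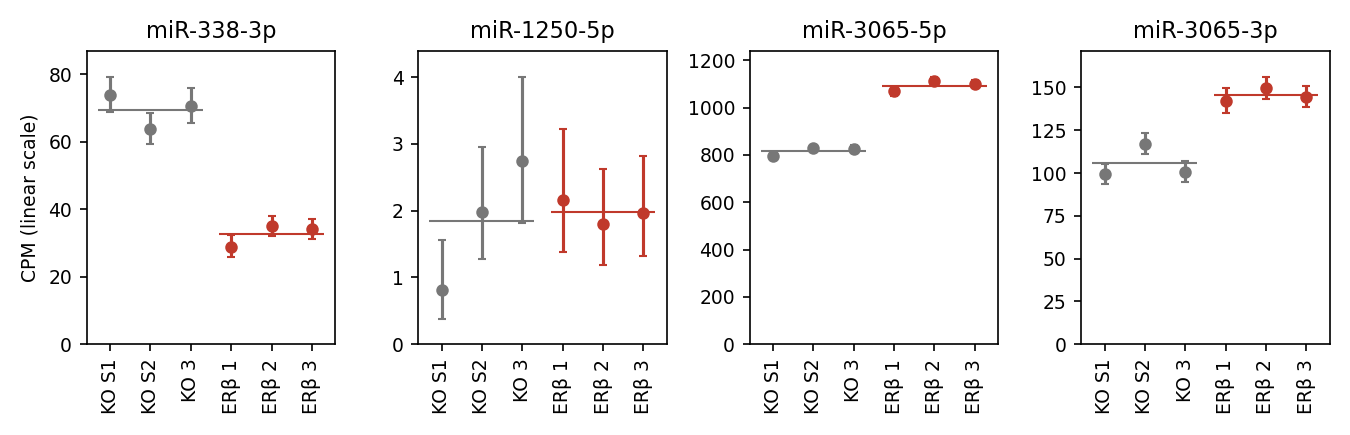
Level in CPM (linear axis from 0, different in each panel) of miR-338-3p, miR-1250-5p, miR-3065-5p and miR-3065-3p in each knockout (grey) and ERβ (red) library; bars are exact 95% Poisson intervals of the count and horizontal lines are group means. The groups are apart for miR-338-3p (lower with ERβ) and both miR-3065 arms (higher with ERβ), and overlap for miR-1250-5p.

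The pair that shares a host and a strand therefore differed in level and in fitted fold change. Within each library, where no scaling enters, miR-338-3p was 90.2, 32.2 and 25.7 times as abundant as miR-1250-5p in knockout libraries S1, S2 and 3. In ERβ libraries 1, 2 and 3 it was 13.4, 19.4 and 17.3 times as abundant. Every knockout ratio was above every ERβ ratio, and the one of knockout library S1 stood far from the rest. That ratio rests on 9 counts of miR-1250-5p, with an exact 95% Poisson interval of 4.12 to 17.1 counts. The nearest ratios between groups, in knockout library 3 and ERβ library 2, rest on 27 counts each, with an interval of 17.8 to 39.3. The ratios take in the level of miR-338-3p, on which the set was selected, so their separation is a description only. On the log2 scale the ratio was 5.40 ± 0.97 in knockout and 4.04 ± 0.27 in ERβ libraries (SD, n = 3 per group), a difference of -1.35. Without knockout library S1 this difference was -0.80. In that fit both fold changes were negative, at -1.04 for miR-338-3p and -0.25 for miR-1250-5p. The opposite signs of the neighbours were thus lost there, and were present in the other fits that tested both. Over all 6 libraries miR-1250-5p was at 0.10 ± 0.36 (standard error), which leaves its sign open, so these signs do not show opposite changes.

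**Figure D3:**
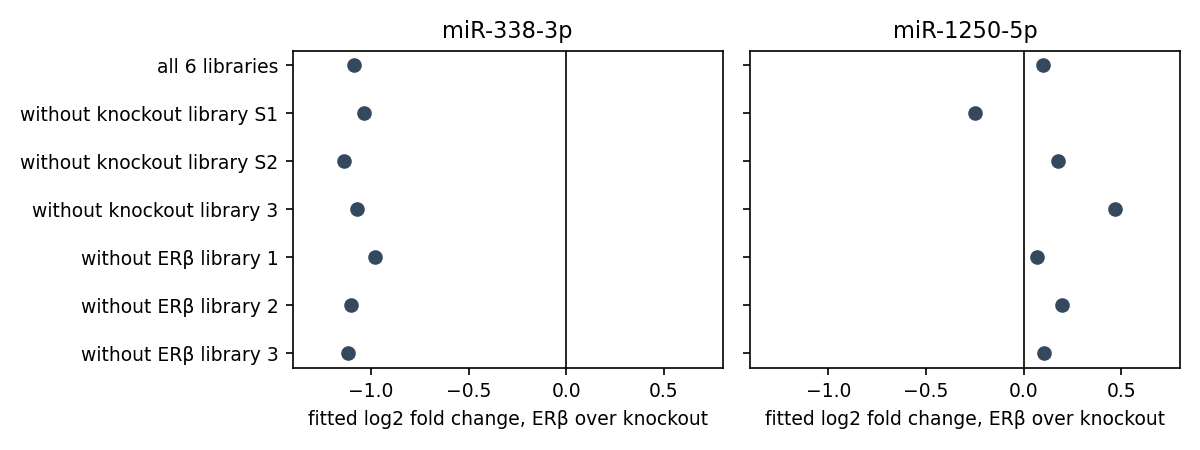
Fitted log2 fold change, ERβ over knockout, of miR-338-3p (left) and miR-1250-5p (right) with all 6 libraries and with each library left out. miR-338-3p stays between -1.14 and -0.98 with a library left out, while miR-1250-5p runs from -0.25 without knockout library S1 to 0.47 without knockout library 3.

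On the opposite strand, both arms of miR-3065 rose. They are not members of the set, and were tested in the fit over all miRNAs. miR-3065-5p, the antisense of miR-338-3p, was at 793, 827 and 826 CPM in knockout libraries S1, S2 and 3 and at 1069, 1111 and 1101 CPM in ERβ libraries 1, 2 and 3. Its log2 fold change was 0.42 ± 0.07, with a Benjamini-Hochberg adjusted p = 0.00177 by edgeR's quasi-likelihood test. miR-3065-3p, the antisense of miR-338-5p, went from 106 ± 9.77 to 145 ± 3.71 CPM (SD, n = 3 per group; edgeR log2 fold change 0.46 ± 0.10, adjusted p = 0.00688). In both, all ERβ libraries lay above all knockout libraries, as they did in 18.9% of all tested miRNAs. Of all tested miRNAs 9.83% were called higher and 13.3% lower; with upper-quartile factors these shares were 15.7 and 8.94%, and with library totals 18.6 and 7.79%. The adjusted p over the alternatives ran from 8.82e-08 to 0.0479 for miR-3065-5p and from 1.09e-07 to 0.0967 for miR-3065-3p. miR-657 had 3 counts in all, 1 each in knockout libraries S2 and 3 and in ERβ library 1, and was not tested.

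The makeup of the locus shifted accordingly toward the opposite strand. Of all counts for the 7 miRNAs, miR-338-3p made up 7.00 ± 0.660% in knockout and 2.56 ± 0.201% in ERβ libraries (SD, n = 3 per group). miR-3065-5p held 82.2 ± 0.353% and 85.9 ± 0.206%, and miR-3065-3p 10.6 ± 0.813% and 11.4 ± 0.125%. miR-1250-5p held 0.185 ± 0.0955% and 0.155 ± 0.0176%. The ratio of miR-3065-5p to miR-338-3p was 10.7, 12.97 and 11.7 in knockout libraries S1, S2 and 3 and 37.0, 31.8 and 32.4 in ERβ libraries 1, 2 and 3. These groups were far apart, with a log2 difference of 1.51. The ratio between the 2 arms of miR-3065 overlapped between groups, at 7.08 to 8.19 in knockout and 7.43 to 7.61 in ERβ libraries. Since strand use is not stated, the split between the strands is as the deposited names give it.

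**Figure D4:**
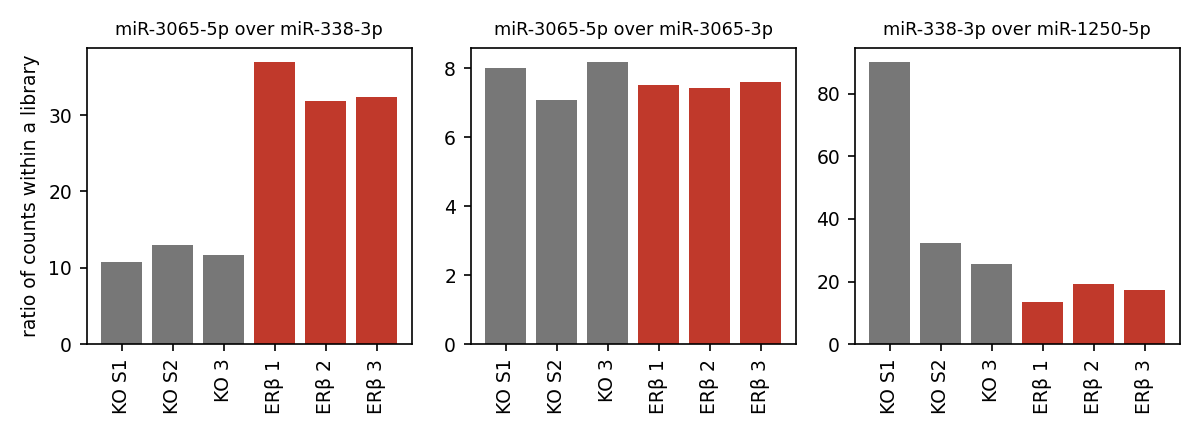
Ratios of counts within each library for 3 pairs of miRNAs from the AATK locus, in knockout (grey) and ERβ (red) libraries, on linear axes from 0. The ratio of miR-3065-5p to miR-338-3p is 10.7 to 12.97 in knockout and 31.8 to 37.0 in ERβ libraries, the ratio of the miR-3065 arms overlaps between groups, and the ratio of miR-338-3p to miR-1250-5p is highest in knockout library S1.

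Other miRNAs from neighbouring sequence give a scale for these differences. In 160 hairpins with both arms tested, the 2 arms differed in log2 fold change by a median of 0.17 and had opposite signs in 36 (22.5%). In 174 pairs of hairpins on 1 strand up to 10 kb apart, many of which share a hairpin, the median difference was 0.26. Opposite signs were found in 21 pairs (12.1%). Each hairpin was represented by the more abundant of its tested arms that belong to a single annotated hairpin. This was at times a minor arm, as for let-7f-1-3p at 29.5 CPM, where let-7f-5p averaged 62909 CPM in knockout libraries. The members were selected for a difference between neighbours, so their place among the pairs is a description and no measure of rarity. For miR-338-3p and miR-1250-5p the difference was 1.19, and 6 of the 174 pairs, this one included, reached that size. Of the other 5 pairs, 4 held miR-495-3p, which averaged 0.781 CPM, and the last was miR-363-3p with miR-106a-5p on the X chromosome. Only that last pair had its miRNAs called in opposite directions. Like miR-1250-5p, miR-495-3p has few counts behind its fold change. For miR-338-3p and miR-3065-5p, on opposite strands and both at 28.9 CPM or more in every library, the difference was 1.51.

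**Figure D5:**
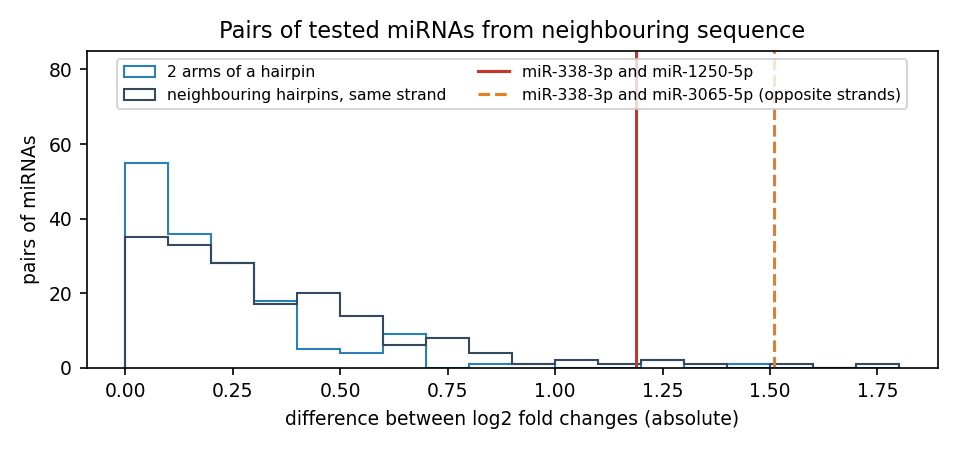
Number of pairs of tested miRNAs by the absolute difference between their log2 fold changes, in bins of 0.1, for the 2 arms of a hairpin (blue) and for neighbouring hairpins of 1 strand (dark). Vertical lines mark miR-338-3p with miR-1250-5p at 1.19 and miR-338-3p with miR-3065-5p at 1.51, both to the right of most pairs. The members were selected for a difference between neighbours, so these places are a description only.

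Outside AATK little of the surrounding region could be tested. Within 5 Mb of the 2 hairpins on chromosome 17 the table lists 14 further miRNAs with a single hairpin outside AATK. Of these 3 were tested, and 0 were called by edgeR's quasi-likelihood test, against 23.1% of all tested miRNAs. None of the 3 had an unadjusted p under 0.05 or was called by DESeq2 or limma-voom. They were miR-6516-5p (-0.39 ± 0.26), miR-6516-3p (-0.19 ± 0.18) and miR-4739 (-0.21 ± 0.26, log2 fold change ± standard error, n = 3 per group), all under 6 CPM on average in each group, so that small differences were not detectable at this depth. Without knockout library S2, which stood apart, miR-6516-5p was called lower (log2 fold change -0.62, edgeR adjusted p = 0.0323). That fit called 19.6% of all tested miRNAs lower, where 13.3% were with all libraries. Each other fit that tested these miRNAs had 0 calls outside AATK.

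miR-338-3p is grouped with miR-219 in oligodendrocyte maturation, and a list of 10 other miRNAs with a role in these cells was read beside it. Of 8 tested, 0 were higher and 1 was lower with ERβ, where 9.83% and 13.3% of all tested miRNAs were called so. The median log2 fold change of the list was 0.13, against -0.01 over all tested miRNAs. At an unadjusted p under 0.05, edgeR had 1 higher and 1 lower; limma-voom called 1 higher and 1 lower, and DESeq2 none. miR-23a-3p, which represses lamin B1, fell from 9969 ± 260 to 8464 ± 223 CPM (log2 fold change -0.24 ± 0.06; edgeR adjusted p = 0.0228). miR-7-5p was at 0.25 ± 0.08 (adjusted p = 0.0592) and miR-219b-3p at 0.48 ± 0.23 (0.172). miR-219a-5p, the closest partner of miR-338 in that setting, was at 24.8 ± 8.12 and 23.2 ± 2.37 CPM, a log2 fold change of -0.09 ± 0.22 that did not pass. The direction of the list's single call depended on the scaling and the filter: with upper-quartile factors, library totals or no filter, 1 member was higher and 0 lower, namely miR-7-5p (log2 fold changes 0.36, 0.40 and 0.29), and miR-23a-3p was not called. Without any single library other than knockout library S2 the list had 0 calls, and without knockout library S2 it had 1 higher and 2 lower. That last fit called 15.25% of all tested miRNAs higher and 19.6% lower.

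Of a list of 15 neural miRNAs, read because AATK is best known from neurons, 11 were tested. The list had 0 higher and 3 lower, where 9.83% and 13.3% of all tested miRNAs were called so. Its median log2 fold change was -0.25. At an unadjusted p under 0.05 edgeR had 0 higher and 6 lower, DESeq2 called 0 and 3, and limma-voom 0 and 4. miR-129-5p fell from 23.7 ± 2.85 to 17.4 ± 1.62 CPM (-0.45 ± 0.13; edgeR adjusted p = 0.0358). miR-9-3p was at -0.28 ± 0.08 (adjusted p = 0.0387) and miR-132-3p, which the factor CREB induces, at -0.39 ± 0.12 (0.0464). These calls lay near the threshold. The list had 0 calls with upper-quartile factors or library totals. It had 0 without knockout library S1 or any single ERβ library, 1 without knockout library 3 and 5 without knockout library S2. The fit without knockout library S2 called 19.6% of all tested miRNAs lower, and the other fits with a library left out 7.15 to 10.8%. The neuron-defining miR-124-3p had at most 1 count in a library.

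Some miRNAs followed the level of miR-338-3p closely over the 6 libraries, and their log2 fold changes were near its own. Likeness was the root mean square distance of log2 CPM after centring each miRNA on its mean, over 389 miRNAs of at least 10 CPM. Members were left out, and the tested miRNAs within 5 Mb outside AATK were below that level. Of the AATK locus and these neighbours only both miR-3065 arms, of the opposite strand, were among the 389, and neither was among the 3 nearest to a member. For the AATK strand and the wider region the distance thus cannot show whether likeness depends on location. It also takes in the group contrast by which the set was chosen. The nearest was miR-424-5p on chromosome X, at a distance of 0.068, where the median distance was 0.56. It was followed by miR-10a-3p (0.10) and miR-195-5p (0.10), both on chromosome 17 but more than 5 Mb from the AATK hairpins. Their log2 fold changes were -1.09 ± 0.08, -1.01 ± 0.08 and -1.004 ± 0.07, and -1.09 for miR-338-3p. For miR-1250-5p no miRNA came close. It had 9 to 29 counts per library, so counting error adds to its distance from miRNAs of at least 10 CPM. The nearest were miR-4326 and miR-130b-5p, both at 0.39, and miR-4504 at 0.42, against a median distance of 0.52.

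The culture was also read for other cells. Of the epithelial miRNAs, miR-200c-3p and miR-141-3p were abundant, at 13863 ± 1060 and 32209 ± 3544 CPM in knockout cells, and both were called lower with ERβ (log2 fold changes -0.31 and -0.33; edgeR adjusted p = 0.0123 and 0.0295). The third, miR-205-5p, a miRNA of basal and squamous epithelium, rose from 4388 ± 359 to 6311 ± 321 CPM (0.52 ± 0.08; adjusted p = 0.00149). Scaled by upper-quartile factors or by library totals, miR-205-5p kept its call and the other two lost theirs, as they did without any single ERβ library. Of 12 markers of blood, stromal, endothelial, muscle, liver and neural cells 6 were tested. By edgeR 0 of them were higher and 3 lower with ERβ, where 9.83% and 13.3% of all tested miRNAs were called so. At an unadjusted p under 0.05 edgeR had 0 and 4 of these markers, and DESeq2 and limma-voom each called 0 and 3. Summed, the 12 markers were at 16581 to 17007 CPM in knockout and 13119 to 14284 CPM in ERβ libraries, mostly miR-126-3p. None of the 12 was at 0 in every library. The 3 called lower were miR-126-3p, miR-143-3p and miR-1-3p, while miR-122-5p (0.33 ± 0.15) and miR-142-3p (0.02 ± 0.18) did not pass. With library totals 1 marker was called higher and 2 lower, and miR-126-3p was not called. The libraries are of 1 cell line, and these markers do not show whether any other cells were present. Any part of such cells in the lower level of miR-338-3p was not tested.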

How the data were processed

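Small RNA of 6 KPL4 libraries was prepared with a QIAseq miRNA kit, per the labels' protocols. FastQC, Trim Galore and GRCh38 are named without versions in the submitters' processing notes; the labels do not give the aligner, counter, strand setting or any collapsing of molecular identifiers. The deposited table holds expected counts per mature miRNA, made by the authors. Columns were assigned by name; 0 columns were left out.

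Counts were rounded and fitted over all 6 libraries, without covariates, in R 4.3.3 with edgeR 4.0.16: filterByExpr (minimum count 10, minimum total 15), TMM scaling, robust quasi-likelihood test, Benjamini-Hochberg adjustment over 783 miRNAs at 0.05. Standard errors are fold changes (log2) divided by the root of the F statistic. DESeq2 1.42.0 and limma 3.58.1 (voom) were alternatives, beside other scalings, filters, a replicate block and each library left out. The fit was checked on simulated counts. Members and lists were chosen with earlier results of these data known. Named miRNAs are the members, the AATK locus, up to 3 of each list by smallest adjusted p, and the 3 nearest in pattern to each tested member, on log2 CPM with a prior count of 2; miR-219a-5p, miR-124-3p, the marker miRNAs, the arms at 0 and those in pairs were named after values were seen, as were the within-library ratios with miR-3065. Sequences and positions are from RefSeq (GRCh38.p14), and introns from GENCODE release 29. Figures were drawn with matplotlib 3.10.9.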

Additional observations from a re-analysis of the deposited data

How the results depend on the processing

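miR-338-3p was lower with ERβ in all 14 alternatives, from -1.16 to -0.93 (log2 fold change); the last, with library totals, was the one that moved by more than the spread between libraries. Library totals and upper-quartile factors shift the median of all tested miRNAs by 0.15 and 0.11, and the calls from 77 higher and 104 lower to 146 and 61 and to 123 and 70. miR-1250-5p ranged from -0.25 (without knockout library S1, where it turned) to 0.47 over the libraries left out. The log2 ratio of miR-338-3p to miR-1250-5p differed between groups by -1.71 to -0.80 over these. An arm ratio of miR-338 could not be formed, since miR-338-5p is at 0, and no miRNA shares a seed with a member, so these were not recomputed.

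With a replicate block on the number in the column name, 88 miRNAs were called (181 without it), 1 of the 2 miR-3065 arms, 1 of 5 miRNAs within 5 Mb, and 0 of the oligodendrocyte and of the neural list; miR-3065-3p lost its call (log2 fold change 0.45, edgeR adjusted p = 0.0967). Since 2 knockout columns carry the number 1 and ERβ library 2 is alone in its block, the numbers do not pair the samples; deviations from the group means correlated at -0.10, 0.13 and 0.12 for libraries of the same number and at -0.10 to 0.08 for the others. With a library left out, 111 to 279 miRNAs were called, 0 to 3 of the oligodendrocyte and 0 to 5 of the neural list. The oligodendrocyte list had 2 calls with the filter of 10 CPM in 3 libraries and with limma-voom, and 0 with the DESeq2 test. The neural list had 0 with upper-quartile factors, library totals, no filter and the filter of 10 CPM. Neighbouring pairs of opposite sign made up 20.3% with the filter of 10 CPM and 12.6 to 19.4% with a library left out. The causes were not tested. At this depth miR-1250-5p, with 140 counts in all, limits what can be said of the pair.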

Other observations

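Among the tested miRNAs, 3 pairs of hairpins overlap on opposite strands; these pairs were looked at after the data were seen. Beside MIR338 and MIR3065, miR-499a-5p and miR-499b-5p had log2 fold changes of -0.98 and 0.67 at mean levels of 6.32 and 1.24 CPM, and miR-374b-5p and miR-374c-5p had 0.30 and 0.02 at 1230 and 0.899 CPM. The pair of miR-338-3p and miR-3065-5p averaged 51.0 and 954 CPM, and was the one of the 3 with both miRNAs above 10 CPM.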
